A study of Mus musculus with 6 samples.

Results

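*Elavl1*, *Elavl2*, *Elavl3*, *Elavl4*, *Nova1*, *Nova2*, *Msi1*, *Msi2*, *Igf2bp2* and *Igf2bp3* encode RNA-binding proteins of 4 families that act on mRNA stability, translation and splicing in neural cells. They were picked by gene symbol and make up 10 of the 23038 genes listed for each library. Polyadenylated RNA of mouse primary oligodendrocyte precursor cells (mOPCs), the glial cells that give rise to myelinating oligodendrocytes, was sequenced in 6 libraries. The cells had been purified from embryos by immunopanning and were collected 72 h after transfection. The siNC group held 3 libraries of cells that received control siRNA. The siQk group held 3 libraries of cells that received siRNA against *Qk*, the gene of the RNA-binding protein Qki. No transgene or engineered allele is named for either group. The study used 3 different siQk siRNAs, and which library received which is not given in the sources used here. The libraries of each group are described as independent biological replicates of cultured cells.

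Elavl (Hu) proteins bind AU- and U-rich stretches of mRNAs and mostly protect them from decay; Elavl1 is made in nearly all cells, while Elavl2, Elavl3 and Elavl4 are known from neurons. Nova1 and Nova2 are neuronal proteins that bind clusters of YCAY in pre-mRNAs and set the choice of alternative exons. Msi1 and Msi2 (Musashi) are proteins of neural stem and progenitor cells that repress the translation of mRNAs such as that of *Numb*. Igf2bp2 and Igf2bp3 bind mRNAs such as those of *Igf2* and *Myc* and affect their transport, stability and translation, and the expression of Igf2bp3 is mostly embryonic. Qki is known to bind ACUAAC and, less strongly, ACUAAU.

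Both hexamers were searched on the transcribed strand, as ACTAAC and ACTAAT in DNA letters, in 1 annotated 3'UTR per gene, the longest (GENCODE M21, build GRCm38, which is mm10). The members held 11 such hexamers in 36064 bases of 3'UTR. *Elavl2*, *Elavl3*, *Elavl4* and *Nova1* held 0 each. *Elavl1*, *Nova2* and *Msi1* held 1 each, *Igf2bp2* and *Igf2bp3* held 2 each, and *Msi2* held 4. The windows of 30 bases below are read 5′ to 3′ on the gene's strand, with the hexamer in capitals. They are shown for the 2 members called lower in siQk and for the pair of neighbouring hexamers in *Msi2*, whose first bases lie 12 bases apart.
Msi1, chr5:115453966-115453995, plus strand: tctggctcccctACTAACctcctgttcaga
Igf2bp2, first, chr16:22060466-22060495, minus strand: cctttcggttgaACTAACataggtgaacat
Igf2bp2, second, chr16:22060282-22060311, minus strand: tcaaataactccACTAACaacaatttttac
Msi2, ACTAAC, chr11:88342654-88342683, minus strand: tttataaattttACTAACaagtagactaat
Msi2, ACTAAT, chr11:88342642-88342671, minus strand: actaacaagtagACTAATgtagacattcac
Over all tested genes with a 3'UTR of at least 50 bases, 36.2% held at least 1 of these hexamers, and 6 of the 10 members did. Per kilobase the members held 0.305 hexamers and all such genes together 0.345. Among genes whose 3'UTR length was within 10% of that of the member, 78.8% held a hexamer for the length of *Nova1*, 52.8% for *Elavl2*, 45.2% for *Msi1* and 42.7% for *Igf2bp2*. Of the genes of like length, 14.0% held at least as many as *Igf2bp2* and 16.2% at least as many as *Igf2bp3*. For *Msi2* it was 9.03%. *Elavl1*, *Nova2* and *Igf2bp3* held hexamers too, with positive log2 fold changes (0.19, 0.28 and 0.42) and no call. A match is a string of letters and no measured binding site.

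Library totals ran from 58166490 to 141045937 tags, the deposited estimated counts per gene, and siNC replicate 1 was the smallest library. *Rn45s*, a ribosomal RNA gene, took 3.11% of its tags, and the remaining 5 libraries had 0.169% to 0.389%. Levels are given as RPKM, tags scaled by exon length and by the library total. Fold changes come from the quasi-likelihood test of edgeR with TMM factors, a scaling that evens out the bulk of the genes. The TMM factors were 0.899 to 0.987 in siNC and 1.04 to 1.07 in siQk, so deposited RPKM values of siQk libraries sit higher against siNC than the edgeR values do. *Qk* itself had 209, 206 and 163 RPKM in siNC and 51.3, 76.6 and 36.2 in siQk, a log2 fold change of -1.98 (SE 0.28, edgeR FDR = 0.00311). Its groups did not overlap, and the siQk mean was 28.4% of the siNC mean.

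A gene was called changed at an edgeR P under 0.01 and a Benjamini-Hochberg FDR under 0.1 over the 12505 genes tested. All 10 members were tested, and 8 of them passed the FDR cutoff. Of these, *Elavl3*, *Elavl4*, *Nova2* and *Igf2bp3* were not called because they missed the P cutoff. Likewise, a call missed or lost below under these cutoffs, beside an FDR that passed, failed on the P cutoff. *Elavl2* and *Nova1* were called higher in siQk, and *Igf2bp2* and *Msi1* lower. That is 4 of 10 members, beside 31.0% of all genes tested (13.8% higher and 17.2% lower), so the share of members was near the background. With library size as the only scaling the called members were not the same: 4 were called higher (*Elavl2*, *Elavl4*, *Nova1* and *Nova2*) and 0 lower, beside 34.8% of genes. DESeq2 called 5 members, beside 39.1% of genes. The median log2 fold change was 0.23 over the members and 0.01 over all genes tested, and the median absolute value was 0.50 against 0.25. Fold changes of *Elavl2* and *Nova1* lay above the 95th percentile of all tested genes, 0.72. Those of *Igf2bp2* and *Msi1* lay below the 25th percentile, -0.28, and above the 5th, -1.04. The deposited RPKM ranges of the groups were apart for 7 members, 6 higher and 1 lower, where 58.3% of tested genes were apart (41.9% higher and 16.4% lower). With RPKM scaled by the TMM factors 8 members were apart, 6 higher and 2 lower, where 54.3% of genes were (27.8% higher and 26.5% lower). The members were chosen with earlier results of these data known, so these contrasts with all genes are a description.

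**Figure D1:**
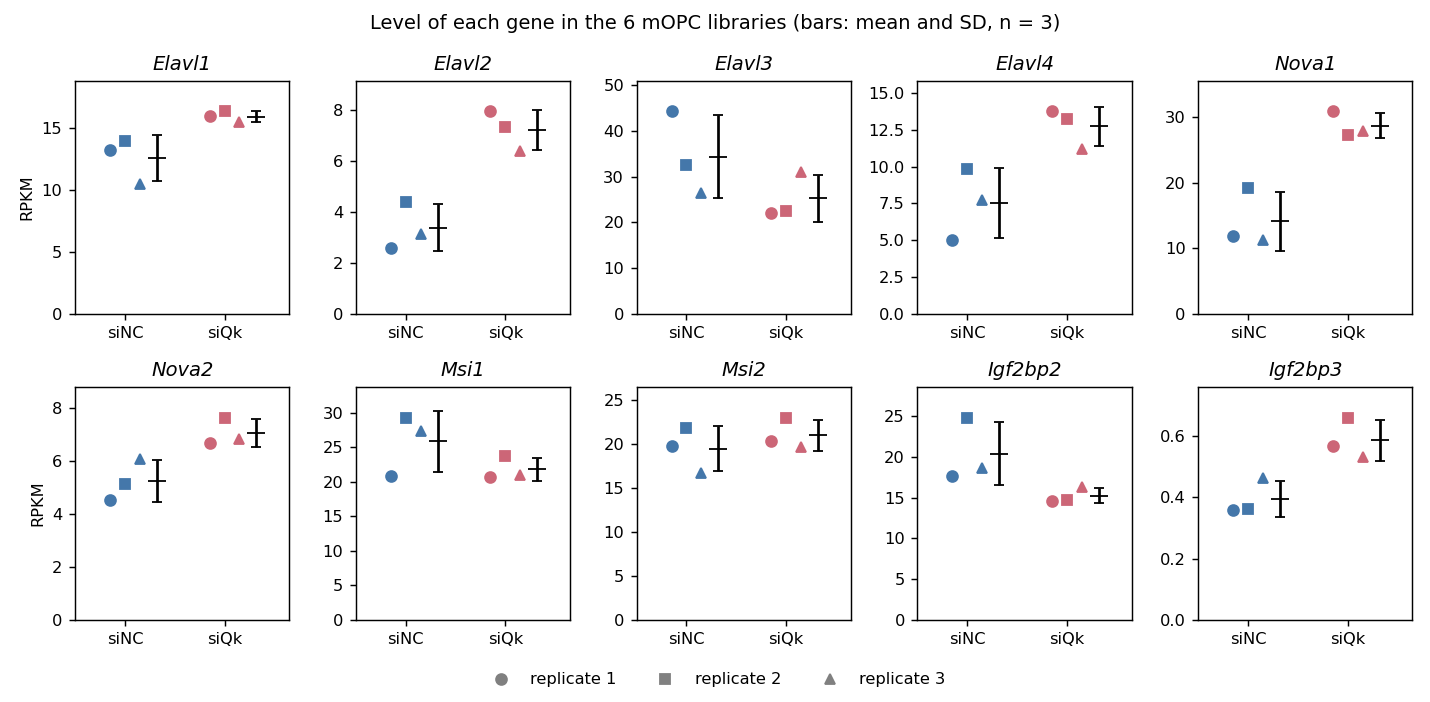
RPKM of each of the 10 genes (vertical axis, from 0) in the 3 siNC and 3 siQk libraries; each point is a library, its shape is the replicate number, and the bars beside the points give mean and SD (n = 3). The siQk points of *Elavl2* and *Nova1* all sit above the siNC points, those of *Igf2bp2* all sit below, and those of *Msi2* overlap.

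*Elavl2*, which encodes the neuronal protein HuB, rose. It had 2.60, 4.41 and 3.14 RPKM in siNC and 7.96, 7.36 and 6.39 in siQk. Every siQk library was above every siNC library, and the lowest siNC value was in replicate 1. The means were 3.38 ± 0.93 and 7.24 ± 0.80 RPKM (SD, n = 3 each), and the log2 fold change was 0.95 (SE 0.18, edgeR FDR = 0.00933), a 1.93-fold difference. The call was kept with any single library left out. It was lost under a cutoff that asks for a change of 1 or more on the log2 scale.

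*Elavl4*, the gene of HuD, had 5.04, 9.84 and 7.72 RPKM in siNC and 13.8, 13.2 and 11.2 in siQk. The groups did not overlap, though siNC replicate 1 was far below the other two siNC libraries. Its log2 fold change of 0.61 (SE 0.21) was not called (edgeR FDR = 0.0560), since it missed the P cutoff. Without siNC replicate 2 it was called, at 0.84 (edgeR FDR = 0.0149), and DESeq2 called it at 0.61 (FDR = 0.0140).

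*Elavl3*, the gene of HuC and the most abundant Elavl mRNA here, had 44.3, 32.4 and 26.3 RPKM in siNC and 22.0, 22.5 and 31.0 in siQk. The groups overlapped, since siQk replicate 3 was above siNC replicate 3. The log2 fold change was -0.61 (SE 0.24, edgeR FDR = 0.0890), which missed the call in every one of the 16 other settings and ran from -0.79 to -0.33 over them, with the value nearest 0 without siNC replicate 1.

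*Elavl1*, the widely expressed HuR, had 13.2, 13.9 and 10.4 RPKM in siNC and 15.9, 16.3 and 15.4 in siQk. The deposited ranges did not overlap, but the log2 fold change was 0.19 (SE 0.13, edgeR FDR = 0.279), within 2 standard errors of 0. Without siNC replicate 3, the lowest siNC library, it was 0.049. Exons of *Elavl1* overlap those of *Ccl25* and exons of *Elavl3* overlap those of *Gm49318*. The library kit does not mark the strand, so reads of such pairs cannot be told apart.

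*Nova1* rose. It had 11.8, 19.2 and 11.2 RPKM in siNC and 30.9, 27.4 and 27.9 in siQk. The groups did not overlap, and siNC replicate 2 was the nearest to siQk. The means were 14.1 ± 4.4 and 28.7 ± 1.9 RPKM (SD, n = 3 each), and the log2 fold change was 0.88 (SE 0.20, edgeR FDR = 0.0165), a 1.84-fold difference. Its call was lost without siNC replicate 1, at 0.80 (edgeR FDR = 0.0510), and without siQk replicate 1, at 0.82 (FDR = 0.0597). It was also lost without siQk replicate 3, at 0.89 (FDR = 0.0429). These 3 fits called 3181, 2478 and 3010 genes in all, against 3879 with all 6 libraries.

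*Nova2*, its paralog, had 4.51, 5.15 and 6.10 RPKM in siNC and 6.67, 7.65 and 6.83 in siQk. The groups did not overlap and the nearest libraries of the groups differed little. The log2 fold change was 0.28 (SE 0.095, edgeR FDR = 0.0593), not called. Without siNC replicate 3 it was 0.37 and called (edgeR FDR = 0.0198). Exons of *Nova1* overlap *Gm33869* and exons of *Nova2* overlap *Gm26821*.

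**Figure D2:**
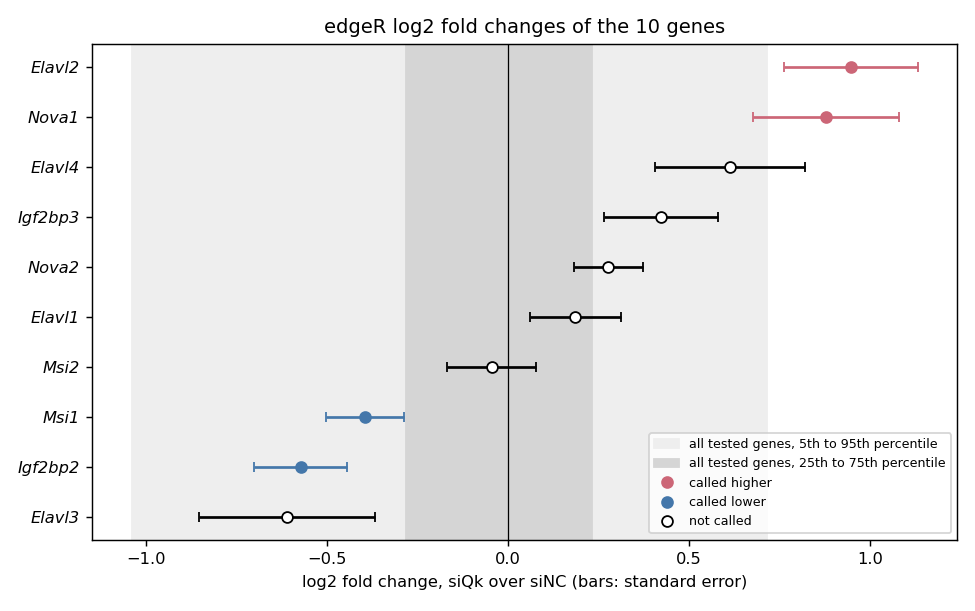
log2 fold change of each gene, siQk over siNC (horizontal axis), with its standard error as a bar; filled points were called changed, and the shaded bands hold the central range of all 12505 tested genes. *Elavl2* (0.95) and *Nova1* (0.88) lie above the outer band, whose edges are -1.04 and 0.72.

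*Msi1* fell. It had 20.9, 29.3 and 27.4 RPKM in siNC and 20.7, 23.7 and 20.9 in siQk. On the deposited scale the groups overlapped, because siNC replicate 1 was as low as the siQk libraries. After scaling by the TMM factors the values were 23.2, 30.4 and 27.8 against 19.6, 22.2 and 20.1, and the groups were apart. The log2 fold change was -0.39 (SE 0.11, edgeR FDR = 0.0292). The call was kept without siNC replicate 1 and lost without any of the other libraries, where the value ran from -0.45 without siQk replicate 2 to -0.31 without siNC replicate 2; it was -0.38 without siNC replicate 3, -0.36 without siQk replicate 1 and -0.37 without siQk replicate 3. The call was also lost with upper quartile scaling, at -0.33 (edgeR FDR = 0.0489), and with library size only, at -0.25 (FDR = 0.157).

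*Msi2* had 19.9, 21.9 and 16.7 RPKM in siNC and 20.4, 23.1 and 19.7 in siQk, and the groups overlapped. Its log2 fold change was -0.044 (SE 0.12, edgeR FDR = 0.794). The sign turned to positive, without a call, under 4 of the 16 other settings.

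*Igf2bp2* fell. It had 17.7, 24.8 and 18.6 RPKM in siNC and 14.6, 14.7 and 16.3 in siQk. All siQk libraries were below all siNC libraries, with siNC replicate 2 standing highest. The means were 20.4 ± 3.9 and 15.2 ± 0.9 RPKM (SD, n = 3 each), and the log2 fold change was -0.57 (SE 0.13, edgeR FDR = 0.0150). The call was lost without siQk replicate 1, at -0.55 (edgeR FDR = 0.0606), and without siQk replicate 2, at -0.54 (FDR = 0.0572). It was also lost with library size as the only scaling, at -0.42 (FDR = 0.0357).

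*Igf2bp3* was the member with the lowest level, 0.357, 0.363 and 0.462 RPKM in siNC and 0.568, 0.660 and 0.531 in siQk, from 127 to 490 tags a library. The groups did not overlap. The log2 fold change was 0.42 (SE 0.16, edgeR FDR = 0.0733), not called. Exons of *Igf2bp3* overlap those of *Malsu1*. *Igf2bp1*, the remaining paralog, had 1 tag in siNC replicate 1 and 0 in the other 5 libraries.

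Over both groups the levels of the 10 genes spanned from *Igf2bp3* to *Elavl3* and *Nova1*. In siNC the order by mean RPKM was *Elavl3*, *Msi1*, *Igf2bp2*, *Msi2*, *Nova1*, *Elavl1*, *Elavl4*, *Nova2*, *Elavl2* and *Igf2bp3*. From *Elavl3* down to *Elavl1* each neighbouring pair overlapped in range, as did *Elavl4* and *Nova2*, while the other neighbours were apart. In siQk *Nova1* came first at 28.7 RPKM, followed by *Elavl3* at 25.2, with overlapping ranges. *Elavl2* had moved past *Nova2*, also with overlapping ranges. The coefficient of variation, the SD over the mean, was larger in siNC than in siQk for 10 of 10 members and for 73.8% of all tested genes. Its median over the members was 18.0% in siNC and 8.08% in siQk. In deposited RPKM the lowest siNC value was in replicate 1, the library with the high *Rn45s* share, for 6 of the 10 members. That library also had the lowest TMM factor, 0.899. With TMM scaling the lowest value of *Igf2bp2* was in replicate 3 (18.9 against 19.7 in replicate 1). That of *Igf2bp3* was in replicate 2 (0.377 against 0.397 in replicate 1). A like count over all genes was not made. The part of that library's composition in these values was not tested beyond leaving it out.

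**Figure D3:**
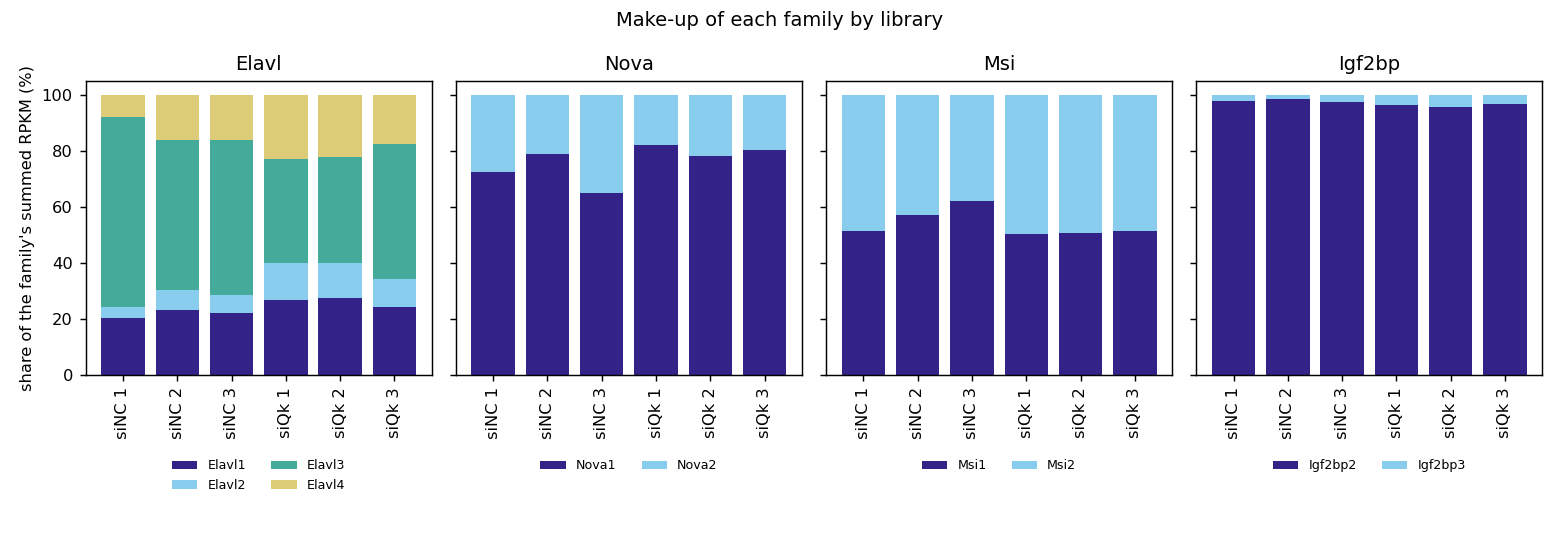
Share of each gene in the summed RPKM of its family (vertical axis, percent) in each of the 6 libraries. *Elavl3* takes a smaller part of the Elavl bar in the siQk libraries than in the siNC libraries, and *Igf2bp2* takes nearly all of the Igf2bp bar in each.

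The make-up of each family was compared as the share of each gene in the summed RPKM of the listed members, which does not depend on the scaling of a library. In a design of this size the lowest p of a two-sided exact permutation test is 0.1. Of the Elavl sum, *Elavl3* held 68.0%, 53.5% and 55.3% in siNC and 36.9%, 37.9% and 48.4% in siQk. These ranges were apart, and the mean difference was -17.8 percentage points (exact permutation p = 0.1). The shares of the other three Elavl genes were all apart in the opposite direction, by 4.34 percentage points for *Elavl1*, 5.95 for *Elavl2* and 7.55 for *Elavl4* (exact permutation p = 0.1 each). Without siNC replicate 1 the difference of *Elavl4* was 4.73 percentage points. The shares of one family sum to a fixed total, so they are not independent.

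Within the library, the ratio of *Elavl3* to *Elavl4* was 8.77, 3.29 and 3.41 in siNC and 1.60, 1.70 and 2.76 in siQk. The ranges were apart, with siNC replicate 1 far above all others. *Elavl4* was above *Elavl2* in all 6 libraries, 1.94 to 2.46 times in siNC and 1.73 to 1.80 times in siQk.

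The summed Elavl level was 57.8 ± 9.1 RPKM in siNC and 61.1 ± 2.6 in siQk, with overlapping libraries (SD, n = 3 each, exact permutation p = 0.9). The 3 genes known from neurons alone summed to 45.3 ± 7.5 and 45.2 ± 3.0 RPKM (exact permutation p = 1). With RPKM scaled by TMM, a setting added after the values were seen, the siQk minus siNC difference of the Elavl sum was -3.27 in place of 3.27 RPKM, and that of the 3 genes known from neurons was -5.10 in place of -0.091, each smaller than the siNC SD.

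The summed Nova level was 19.3 ± 4.4 RPKM in siNC and 35.8 ± 1.6 in siQk (SD, n = 3 each), 1.85 times as high with the libraries apart (exact permutation p = 0.1). With TMM scaling the siQk minus siNC difference of this sum was smaller, 13.6 in place of 16.4 RPKM. *Nova1* held 72.4%, 78.9% and 64.8% of the Nova sum in siNC and 82.2%, 78.2% and 80.3% in siQk. The siQk range lay partly within the siNC range, so the difference of 8.22 percentage points (exact permutation p = 0.2) did not set the groups apart. It was 4.60 without siNC replicate 3 and 11.6 without siNC replicate 2.

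*Msi1* held 51.2%, 57.2% and 62.1% of the Musashi sum in siNC and 50.3%, 50.7% and 51.5% in siQk, a difference of -6.00 percentage points (exact permutation p = 0.2). The groups overlapped at siNC replicate 1, without which the difference was -8.80, and it was -3.40 without siNC replicate 3. The Musashi sum was 45.3 ± 5.3 RPKM in siNC and 42.8 ± 3.4 in siQk (exact permutation p = 0.6). The difference of -2.51 RPKM was -7.10 with TMM scaling and 0.39 without siNC replicate 2, so its size and sign were not settled. It was -4.82 without siNC replicate 1, -4.48 without siQk replicate 2, -1.63 without siQk replicate 1 and -1.42 without siQk replicate 3.

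The Igf2bp sum was 20.8 ± 3.9 RPKM in siNC and 15.8 ± 0.9 in siQk, with the libraries apart (exact permutation p = 0.1). The difference of -4.99 RPKM was -2.79 without siNC replicate 2 and -6.88 with TMM scaling. *Igf2bp2* made up 98.1% of it in siNC and 96.3% in siQk. This share differed by -1.79 percentage points (exact permutation p = 0.1), and by -2.65 when taken from tag counts instead of RPKM.

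The genes whose profile over the 6 libraries was most like that of a called member were looked up for *Elavl2* and *Igf2bp2*, the called members with the highest and the lowest fold change. The measure was Pearson's r of the TMM-scaled logCPM against 10035 other genes with an average logCPM over 3. For *Elavl2* they were *Zfp961* (r = 0.999), *Rnf152* (0.996) and *Lbr* (0.995). For *Igf2bp2* they were *Wls* (0.999), *Slc9a7* (0.996) and *Dock5* (0.995). The 6 points share their libraries, and values this high are picked from many genes, so they are a description.

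**Figure D4:**
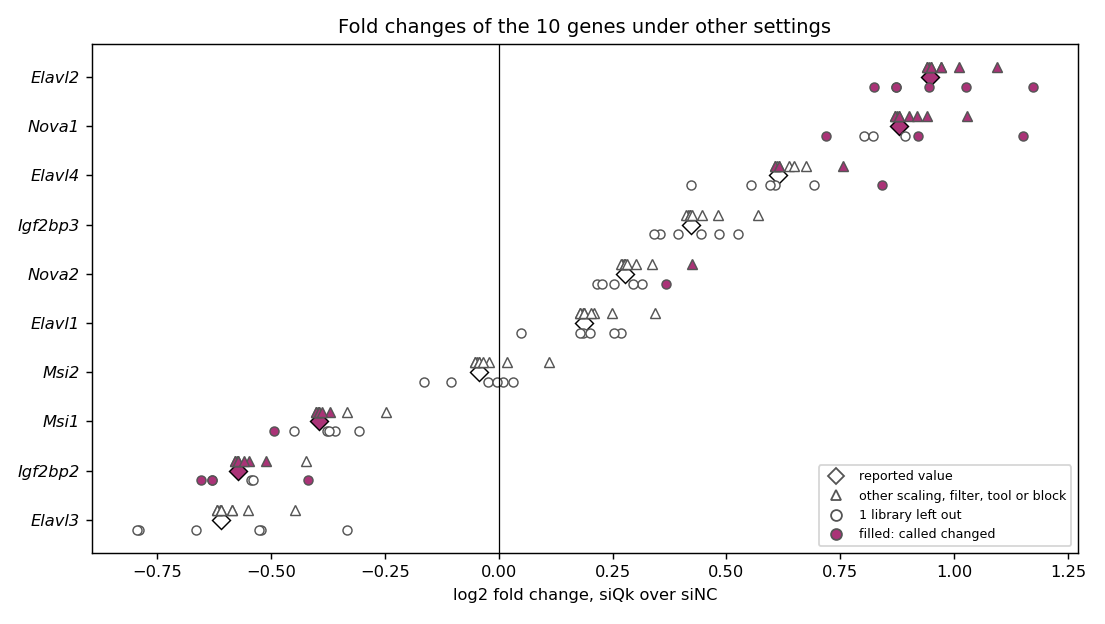
log2 fold change of each gene, siQk over siNC (horizontal axis), in the reported fit (diamonds), with another scaling, filter, tool or replicate block (triangles) and with 1 library left out (circles); filled symbols were called changed, and the stricter cutoff, which leaves the values as they are, is not drawn. *Elavl2* is filled in every setting drawn, and only *Msi2* has values on both sides of 0.

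Other mRNA-binding factors were read from the same fit, in which 13.8% of all genes tested were called higher and 17.2% lower. Of 7 factors that bind AU-rich elements and act on decay or translation, all tested, 2 rose and 0 fell, with a median log2 fold change of 0.12. *Zfp36l1*, of the family that recruits the deadenylation machinery, had 17.1, 19.4 and 19.5 RPKM in siNC and 26.7, 29.0 and 24.8 in siQk (log2 fold change 0.37, SE 0.07, edgeR FDR = 0.00776). *Khsrp*, a decay-promoting protein, had 25.7, 29.0 and 27.7 RPKM in siNC and 37.7, 38.4 and 36.3 in siQk (0.30, SE 0.06, edgeR FDR = 0.00814). Both were apart between the groups and higher in siQk, as were 41.9% of all genes tested. Both fold changes were smaller than that of *Elavl2*. *Zfp36* and *Zfp36l2*, relatives of *Zfp36l1*, had log2 fold changes of -0.29 and -0.34 without a call. *Hnrnpd*, *Tia1* and *Tial1* had values from 0.08 to 0.21, also without a call. With library size as the only scaling, 4 of the 7 were called higher, and DESeq2 called 4, of which 1 was lower.

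Of 19 other neural factors of mRNA stability and translation, 1 rose and 4 fell, with a median log2 fold change of 0.04. The Cpeb proteins bind cytoplasmic polyadenylation elements. *Cpeb1* had 1.50, 1.36 and 1.28 RPKM in siNC and 0.660, 0.726 and 0.696 in siQk (log2 fold change -1.15, SE 0.15, edgeR FDR = 0.00253). *Cpeb2* had 16.6, 17.0 and 16.1 RPKM in siNC and 8.70, 9.11 and 10.2 in siQk (-0.98, SE 0.09, edgeR FDR = 0.000884). Both kept the call with any library left out, and *Cpeb3* and *Cpeb4* were not called. *Samd4b*, of the Smaug family of translational repressors, fell by 0.63 on the log2 scale (edgeR FDR = 0.0219), and its relative *Samd4*, named after its value was seen, fell by 0.59 (FDR = 0.00122). *Ybx1*, a cold-shock mRNA-packaging protein, rose by 0.60 (FDR = 0.0240). The call of *Ybx1* was lost without siNC replicate 3 (0.61), siQk replicate 1 (0.56), siQk replicate 2 (0.60) or siQk replicate 3 (0.65). That of *Samd4b* was lost without siNC replicate 2 (-0.68), siQk replicate 1 (-0.60) or siQk replicate 2 (-0.58). With library size as the only scaling 9 of the 19 were called, 5 of them higher.

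The let-7 circuit, in which Lin28 blocks a microRNA that represses *Igf2bp* and *Hmga2* mRNAs, was near silent at its top. *Lin28a* and *Lin28b* had mean levels of at most 0.00116 RPKM in either group. Of 12 genes of the circuit 7 were tested, 1 rose and 1 fell. *Zcchc11*, which adds uridines to let-7 precursors, rose by 0.40 on the log2 scale (edgeR FDR = 0.0126) and was not called without siQk replicate 3 (0.37). *Dis3l2*, the nuclease that degrades such precursors, fell by 0.29 (FDR = 0.0150) and was not called without siNC replicate 1 (-0.26), siQk replicate 1 (-0.31), siQk replicate 2 (-0.26) or siQk replicate 3 (-0.30).

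Known mRNA partners of the Elavl, Igf2bp and Nova families were called in both directions. Of the Musashi partners 1 was called, and it was lower. Of 12 mRNAs bound by Elavl proteins 11 were tested, 3 rose and 2 fell, and their median log2 fold change was -0.18. Over all genes tested, 13.8% were called higher and 17.2% lower. *Ccnb1*, a mitotic cyclin, had 3.95, 3.22 and 3.54 RPKM in siNC and 18.5, 13.2 and 9.56 in siQk (log2 fold change 1.79, SE 0.24, edgeR FDR = 0.00295). *Ccna2*, the S-phase cyclin, rose by 1.40 (SE 0.25, FDR = 0.00719). *Myc* had 16.3, 13.6 and 19.1 RPKM in siNC and 34.6, 40.1 and 25.9 in siQk (0.88, SE 0.18, edgeR FDR = 0.0108). For these cyclins and *Myc* every siQk library was above every siNC library in deposited RPKM, as for 41.9% of all genes tested. *Fos*, an immediate early gene, fell by 0.82 (SE 0.15, FDR = 0.00753). *Cdkn1a*, the gene of the cell cycle inhibitor p21, fell by 0.51 (SE 0.14, FDR = 0.0295), a call lost without siNC replicate 2 (-0.54), siNC replicate 3 (-0.40), siQk replicate 2 (-0.39) or siQk replicate 3 (-0.55). *Gap43*, *Mapt*, *Bdnf*, *Vegfa*, *Hif1a* and *Ccnd1* were not called.

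Of 7 mRNAs bound by Igf2bp proteins 5 were tested. *Cd44*, the gene of a cell surface glycoprotein, had 16.6, 17.3 and 17.4 RPKM in siNC and 5.82, 4.30 and 5.64 in siQk. These groups stood far apart, with a log2 fold change of -1.85 (SE 0.13, edgeR FDR = 0.000446). *Myc*, also on this list, rose, and *Actb*, *Igf2* and *Mapt* were not called.

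Of 4 mRNAs bound by Musashi proteins 3 were tested, and *Cdkn1a*, given above, was the one called. *Numb*, the gene of a Notch inhibitor, had a log2 fold change of -0.25 and was not called. *Dcx* had one of 0.81 (FDR = 0.0460) without passing the P cutoff. Of 7 genes whose exons Nova proteins regulate 4 were tested. *Dab1*, the Reelin signalling adaptor, rose by 0.62 (SE 0.15, FDR = 0.0184), and *Agrn*, the gene of agrin, fell by 0.78 (SE 0.17, FDR = 0.0141). Neither call held with every library: *Dab1* lost it without siNC replicate 1 (0.55), siNC replicate 3 (0.52), siQk replicate 2 (0.59) or siQk replicate 3 (0.57), and *Agrn* without siNC replicate 2 (-0.75), siQk replicate 1 (-0.76) or siQk replicate 2 (-0.75). The fold changes cover whole genes and give no exon choice.

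**Figure D5:**
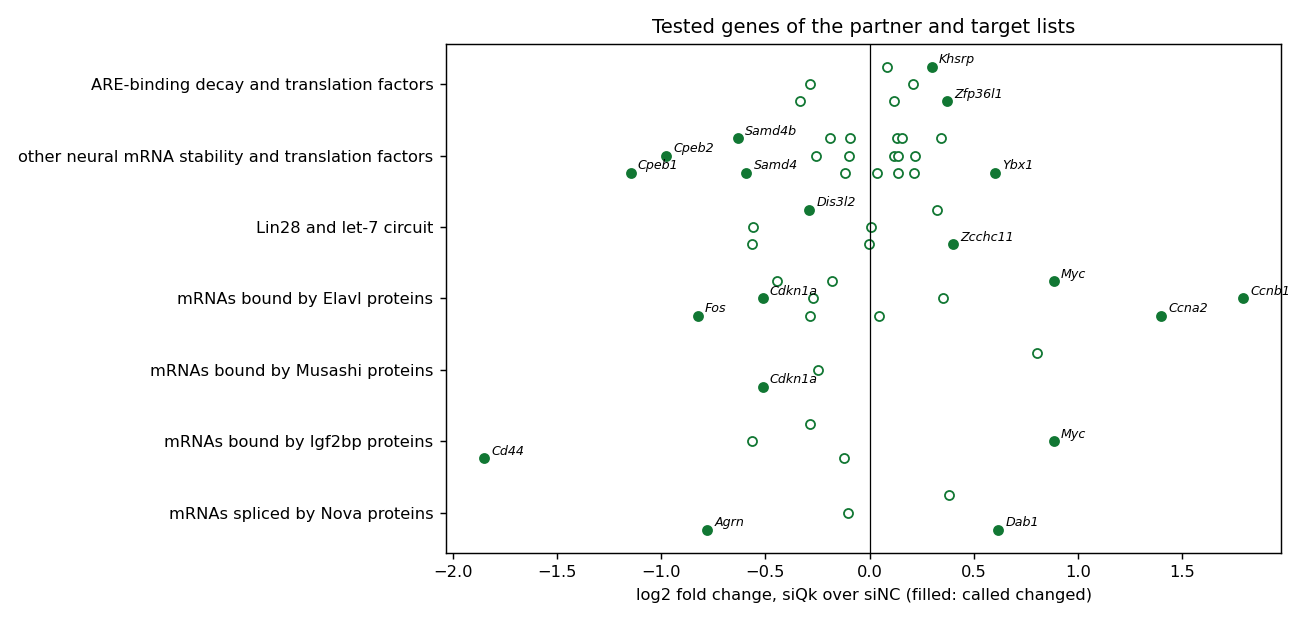
log2 fold change, siQk over siNC (horizontal axis), of the tested genes of each list of other mRNA-binding factors and known mRNA partners (rows); filled points were called changed and carry the gene symbol. *Ccnb1* (1.79) and *Cd44* (-1.85) lie farthest out, and the Elavl, Igf2bp and Nova partner rows hold filled points on both sides of 0.

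Several members are known from other cell types, so marker levels are given beside them. Over all genes tested, 13.8% were called higher and 17.2% lower. In bulk RNA, fewer cells of a type and less RNA per cell cannot be told apart. All 8 OPC markers were tested and 4 rose (*Cspg4*, *Olig1*, *Olig2* and *Nkx2-2*) while 0 fell, and their summed level was 849 to 901 RPKM in siNC and 1161 to 1304 in siQk. *Olig1* lost its call without siNC replicate 2 (0.39), siQk replicate 1 (0.44) or siQk replicate 2 (0.37). Of 14 neuron markers 11 were tested, 4 rose (*Snap25*, *Nefl*, *Map2* and *Syp*) and 1 fell (*Gad2*). With library size only, with DESeq2, with the other edgeR tests and without siNC replicate 2, 7 were higher. *Syp* lost its call without siNC replicate 1 (0.69), siNC replicate 3 (0.72) or siQk replicate 3 (0.63), and *Gad2* did not pass the filter on low counts without siNC replicate 3. Their summed level was 163 to 260 RPKM in siNC and 208 to 248 in siQk, with overlap. The neuronal *Slc17a6* was at 0 in all 6 libraries, and *Stmn2* was at most 0.0439 RPKM. *Tubb3* and *Map2* had the highest levels of the list. Their means were 123 and 58.8 RPKM in siNC and 91.9 and 96.8 in siQk. Of 10 neural progenitor markers 9 were tested, with 2 higher (*Hes5* and *Fabp7*) and 1 lower (*Vim*, not called without siQk replicate 3, at -0.72). Their summed level was 2440 to 2786 RPKM in siNC and 3672 to 4011 in siQk. *Fabp7*, the largest part of that sum in siQk, had means of 1169 RPKM in siNC and 2786 in siQk. *Vim* went the other way, with means of 1223 and 764 RPKM. Of 8 astrocyte markers 7 were tested, 4 fell (*Gfap*, *Aldh1l1*, *Slc1a3* and *Slc1a2*) and 0 rose, with summed levels of 289 to 410 RPKM in siNC and 284 to 307 in siQk. Of 7 microglia markers only *P2ry12* was tested, and it fell, while the summed level was 0.721 to 3.32 RPKM in siNC and 0.308 to 0.407 in siQk. Of 10 fibroblast and vascular markers 1 was tested and was not called, with summed levels of 2.51 to 5.05 and 3.93 to 5.07 RPKM. The part of these markers' cell types in the values of the 10 genes was not tested.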

How the data were processed

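Paired-end mRNA-seq reads of the 6 mOPC libraries had been aligned to mm10 by the authors with OLego and quantified with Quantas; versions and gene annotation are not given in the sources used here. The authors deposited, per gene and library, the estimated count of tags (some with decimals) and RPKM, which equals tags scaled by exon length and library total. It is not given whether tags are reads or pairs. Estimated counts were rounded and tested with edgeR 4.0.16 (quasi-likelihood, TMM, limma 3.58.1, R 4.3.3), group as the only term, on the 12505 of 23038 genes with an average logCPM over 0. SE is the absolute log2 fold change over the square root of F. Replicates differed by more than counting noise (chi-square per degree of freedom at least 36.3). The edgeR script was also tested on simulated counts. The members, lists and naming rule were chosen with earlier results of these data known. Named were *Qk*, the members, up to 3 changed genes per list and direction, members of lists of up to 8 genes, and likeness genes. *Map2* was matched through its Entrez identifier. Alternatives were other scalings, filters, tools (DESeq2 1.42.0) and cutoffs, a replicate block, and each library left out. Protein sequences were not used here.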

Additional observations from a re-analysis of the deposited data

How the results depend on the processing

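Over 16 alternative settings for each of the 10 genes, 132 of 160 values kept sign and call, 17 lost a call, 7 gained one and 4 changed sign, all 4 of *Msi2* (0.018 with upper quartile scaling, 0.11 with library size only, 0.0099 without siNC replicate 1 and 0.031 without siNC replicate 2, with a range of -0.16 to 0.031 over libraries left out). *Elavl2* lost its call under the cutoff of FDR 0.05 and absolute log2 fold change 1 and under no other setting, *Nova1* in 4 settings, *Igf2bp2* in 4 and *Msi1* in 8. Library size alone moved the median log2 fold change of all genes from 0.01 to 0.16; relative to that median *Elavl2* stood at 0.93, *Nova1* at 0.87, *Igf2bp2* at -0.58 and *Msi1* at -0.41. The lists are small, and their counts of genes in each direction depended on the setting. The causes were not tested. Marker counts, summed RPKM and fold changes of single listed genes were rerun as settings added after seeing the data.

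With library size only, 4 members were higher and 0 lower, 4 AU-rich element factors were called, all 4 higher, 9 other neural factors were called with 5 higher, the let-7 circuit had 2 higher and 0 lower, the Elavl partners had 1 lower, and the Musashi partners had 1 higher and 0 lower. With upper quartile scaling 1 member was lower, 2 other neural factors were higher, 1 Elavl partner was lower, and 0 Musashi partners were called or lower. Under the stricter cutoff 0 members were called (0 higher, 0 lower), as were 0 AU-rich element factors (0 higher), 0 of the let-7 circuit (0 higher, 0 lower), 0 Musashi partners (0 lower) and 0 Nova genes (0 higher, 0 lower); 1 other neural factor was called (0 higher, 1 lower), 2 Elavl partners (0 lower) and 1 Igf2bp partner (0 higher). Without a filter on low counts 4 genes of the let-7 circuit were called (3 higher), 2 Musashi partners (1 higher) and 4 Nova genes (3 higher). DESeq2 called 4 AU-rich element factors (1 lower), 2 higher genes of the let-7 circuit and 2 Musashi partners (1 higher); edgeR's exact and likelihood ratio tests each called 1 AU-rich element factor lower and 2 Musashi partners (1 higher). From tag counts the share differences were 4.12 percentage points for *Elavl2*, -2.65 for *Igf2bp2* and 2.65 for *Igf2bp3*.

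With 1 library left out, 1 to 4 members were called (1 to 3 higher, 0 to 2 lower); without siQk replicate 1 it was 1, and without siQk replicate 2 or siQk replicate 3 it was 2. The ranges were 3 to 5 called for other neural factors (0 to 2 higher), 1 to 3 for the let-7 circuit (1 to 2 higher, 0 to 1 lower), 0 to 1 for Musashi partners (0 to 1 higher, 0 to 1 lower) and 0 to 3 for Nova genes (0 to 3 higher, 0 to 1 lower), with 1 to 3 lower for Elavl partners and 0 to 1 lower for AU-rich element factors. Calls over all genes ran from 2478 without siQk replicate 1 to 3704 without siNC replicate 3, against 3879 with all, and were 946 under the stricter cutoff, which called 0 OPC markers and 2 neuron markers higher. Library size only gave 31.4% lower of all calls in place of 55.4%, and upper quartile scaling 44.4%.

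With the replicate number as a block the 4 members kept their calls and 2796 genes were called in all; in the same block fit 1 gene of the let-7 circuit was called (0 lower), 1 Elavl partner was lower, and the Musashi partners had 1 higher and 0 lower. The block fit did not call *Samd4b* (-0.62), *Cdkn1a* (-0.52), *Dis3l2* (-0.29), *Syp* (0.80) or *Vim* (-0.80). The numbers did not pair the libraries: deviations from group means correlated at -0.05, -0.15 and -0.34 for the 3 numbers, and 0 of 6 libraries correlated best with their own number. Depth limits *Igf2bp3*, with 127 to 490 tags a library, more than the other members.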
